A study of Homo sapiens with 80 samples.

Results

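The levels of 10 transcription factor genes of paraxial mesoderm were followed through cardiac differentiation of human pluripotent stem cells, for TBX6, MSGN1, HES7, MEOX1, MEOX2, TCF15, PAX3, EBF1, EBF2 and EBF3. They are 10 of the 43388 genes in the expression tables. They were listed by name as factors of mesoderm outside the heart that are present around days 2 to 6, and they were chosen by their TPM values around those days, with the order of the purity classes known. Results of the RNA-only experiment were known too when they were chosen. The differences between classes on days 2, 4 and 6 of the larger experiment are therefore given as descriptions, without a test. All RNA-only differences of these genes are descriptions too, without p-values. Their RNA-only calls are counted only as a description, and nothing is read from those counts.

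The study differentiated pluripotent cells to cardiomyocytes with CHIR99021, a GSK3 inhibitor that switches on WNT signalling, followed by IWP2, which blocks WNT secretion. Differentiations were classed as high or low purity by the share of cells carrying cardiac troponin T in flow cytometry on day 16. In the multi-omic experiment, the induced pluripotent line WTC11 gave 56 libraries of poly(A) RNA between day 0 and day 16. All 25 high-purity libraries came from passage 52 and 1 differentiation, and all 31 low-purity libraries from passage 69 and 1 differentiation. CHIR99021 was given on day 0 and IWP2 on day 2. Each of days 0, 2, 4 and 6 had 4 wells per class. Days 8, 10, 13 and 16 had 3, 1, 2 and 3 high-purity wells and 4, 4, 4 and 3 low-purity wells. The replicates are wells of the same differentiation, so the p-values measure the spread between wells. Purity, passage and differentiation cannot be told apart there.

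The RNA-only experiment held 24 total RNA libraries, 1 for each of 4 stages of 6 differentiations. Its lines were the embryonic stem cell line H9 (low purity at passage 55, high at passage 58) and 2 induced pluripotent lines, IMR90-4 (high at passage 55, low at passage 75) and WTC11 (low at passage 69, high at passage 81). Stage 1 was day 0. Stages 2, 3 and 4 were days 2, 4 and 6 in WTC11 and days 3, 5 and 7 in H9 and IMR90-4, in which IWP2 was given on day 3. The CHIR99021 dose was set separately for each line. The labels do not say whether the low-purity WTC11 cells at passage 69 came from the same differentiation in both experiments. Libraries held 6579715 to 18143597 reads in the multi-omic experiment and 17990882 to 40357968 in the RNA-only experiment. Summed TPM (a level scaled by transcript length and library total) of 5 cardiomyocyte markers on day 16 was 8065 to 9887 with high purity and 1846 to 3120 with low purity, in the order of the labels.

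Paraxial mesoderm forms from the primitive streak under WNT and FGF signals and segments into somites, which give rise to vertebrae, skeletal muscle and dermis. Its unsegmented part, the presomitic mesoderm, depends on TBX6 and MSGN1 and carries the oscillating repressor HES7. Somites then express TCF15, MEOX1, MEOX2 and PAX3, while the heart comes from lateral mesoderm that leaves the same streak. The EBF genes encode helix-loop-helix factors with roles that include B cells (EBF1), brown fat (EBF2) and neurons and muscle (EBF3).

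In RefSeq coordinates (GRCh38.p14) TBX6 lies at chr16:30085793-30091924, MSGN1 at chr2:17816460-17817798, HES7 at chr17:8120592-8126634, MEOX1 at chr17:43640389-43661922, TCF15 at chr20:604257-610309 and PAX3 at chr2:222199887-222298998. All are protein-coding, and the reads were summed per gene.

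The presomitic factors came first. MSGN1, a helix-loop-helix activator of the presomitic programme, had 0 reads in all 8 wells on day 0. On day 2 it stood at 176, 136, 148 and 164 TPM in the high-purity wells and at 203, 189, 192 and 209 TPM in the low-purity wells. Every low-purity well was above every high-purity well on day 2. Against a floor of 3 reads per library on day 0, the day 2 mean was at least 301-fold higher in the high-purity wells and at least 233-fold higher in the low-purity wells. By day 4 MSGN1 was between 0.153 and 2.32 TPM in the high-purity wells and between 0 and 0.654 TPM in the low-purity wells. It had 0 reads in all 7 wells on day 8 and in 37 of all 56 libraries. This pulse was the highest level reached by any of the 10 genes.

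The MSGN1 promoter window is shown because this gene had the sharpest pulse, 2 days after a WNT activator, and TBX6 is shown beside it because it is a T-box factor. The windows are the 250 bases before the RefSeq start (GRCh38.p14, 5′ to 3′ on the strand of the gene). Capitals mark matches to CTTTGA, a TCF/LEF site through which WNT signals act, and to AGGTGT, a T-box site, each sought on both strands (TCAAAG and ACACCT in reverse).
MSGN1, chr2:17816210-17816459, plus strand: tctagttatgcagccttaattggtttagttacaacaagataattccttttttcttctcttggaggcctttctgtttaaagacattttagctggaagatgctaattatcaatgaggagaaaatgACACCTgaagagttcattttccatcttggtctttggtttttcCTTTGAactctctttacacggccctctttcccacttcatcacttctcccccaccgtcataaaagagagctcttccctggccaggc
TBX6, chr16:30091925-30092174, minus strand: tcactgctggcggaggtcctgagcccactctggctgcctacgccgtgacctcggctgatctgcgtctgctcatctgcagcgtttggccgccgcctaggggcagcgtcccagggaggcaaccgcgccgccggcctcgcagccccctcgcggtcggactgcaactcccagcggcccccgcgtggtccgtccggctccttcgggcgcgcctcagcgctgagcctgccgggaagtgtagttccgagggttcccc

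In MSGN1 the T-box match begins 127 bases and the TCF/LEF match 85 bases before the start. Of 35116 promoter windows of the same length, 11.2% hold the TCF/LEF letters and 9.57% the T-box letters, so each match is common. The MSGN1 window has 40.8% GC bases and the TBX6 window 72.0%. Promoters were found in the RefSeq table for 7 of the 10 genes. The HES7 window (chr17:8124107-8124356) and the EBF1 window (chr5:159097957-159098206) lie inside the span of their gene, not before its outer end. Besides MSGN1, the other 6 windows hold none of these letters, and no window of the 7 holds the palindromic EBF site, present in 1.06% of windows. A match describes letters only, and no match says nothing of the factor.

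TBX6, the T-box factor that directs cells to paraxial instead of neural fate, followed the same course at a lower level. On day 2 it was 38.6, 32.2, 37.7 and 36.5 TPM in the high-purity wells. The low-purity wells had 53.4, 55.9, 48.4 and 45.7 TPM of TBX6, again all above the high-purity wells. The order then turned: on day 4 the high-purity wells held 2.91, 3.84, 1.45 and 3.10 TPM and the low-purity wells 0.368, 0.594, 0.269 and 0.109 TPM, without overlap. From day 2 to day 4 the mean of TBX6 in TPM went from 36.3 to 2.82 in high purity, and from 50.8 to 0.335 in low purity. The low-purity wells thus showed the larger day 2 peak and the lower day 4 remnant. In bulk libraries, fewer cells expressing a gene and less RNA of it per cell cannot be told apart.

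HES7, the repressor at the core of the segmentation clock, made the third day 2 peak. It was 12.6, 13.4, 14.4 and 12.2 TPM in the high-purity wells and 12.2, 12.8, 11.8 and 14.5 TPM in the low-purity wells, and the classes overlapped. On day 0 it had 1 read in 1 of the 8 wells. Later HES7 stayed low but did not vanish: on day 13 it was 2.35 and 1.60 TPM in the high-purity wells and 0.751 to 1.10 TPM in the low-purity wells. The course of each gene by day is shown in the plot of well values.

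**Figure D1:**
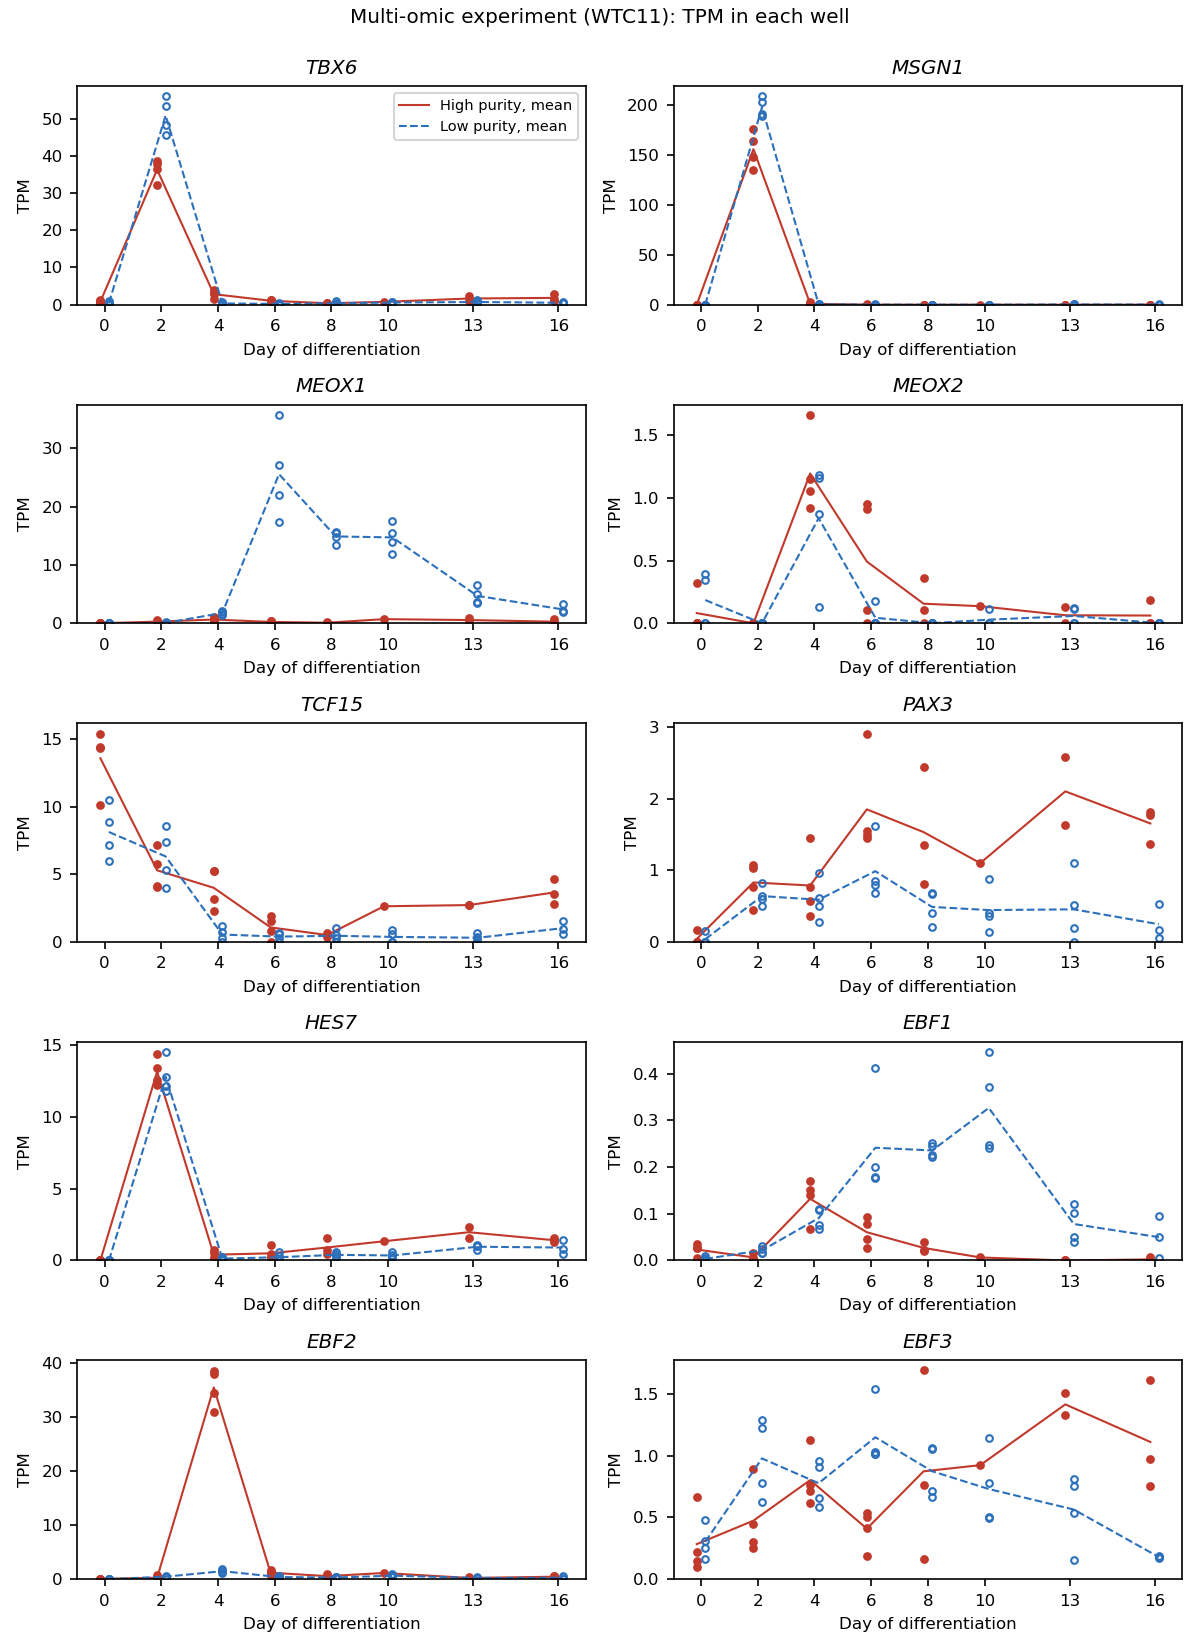
TPM of the 10 genes by day (x axis, days of differentiation) in the multi-omic WTC11 wells, with high- and low-purity wells as separate points and lines through the means. MSGN1, TBX6 and HES7 peak on day 2 in both classes, EBF2 on day 4 in the high-purity wells, where it reaches 31.0 to 38.6 TPM, and MEOX1 on day 6 in the low-purity wells, where it reaches 17.4 to 35.7 TPM.

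EBF2 was the day 4 gene. It was 37.9, 34.4, 38.6 and 31.0 TPM in the high-purity wells on day 4, against 1.47, 1.84, 1.14 and 1.42 TPM in the low-purity wells. The lowest high-purity well was far above the highest low-purity well, and the means of 35.5 and 1.46 TPM differ 24.2-fold. On day 2 EBF2 was at most 0.683 TPM in either class. The high-purity mean on day 6 was 1.19 TPM, 29.9-fold below its day 4 mean, so that a single sampled day held nearly all of the EBF2 signal. The low-purity wells had 0.162 to 0.524 TPM on day 6. Beside the EBF2 difference of day 4, the 5 cardiomyocyte markers (TNNT2, MYH6, MYH7, ACTN2 and NKX2-5) summed to 23.2 to 37.6 TPM with high purity and already to 577 to 663 TPM with low purity, an order opposite to that of day 16. Other summed lists were also lower with high purity on day 4, without overlap: 112 to 147 against 297 to 318 TPM for mural, 206 to 270 against 355.5 to 373.5 TPM for endothelial, 108 to 121 against 146 to 159 TPM for neural and neural crest, and 1014 to 1254 against 1755 to 1790 TPM for lateral plate and cardiac mesoderm markers. Of those lists' genes tested that day, 0 mural genes were called higher and 2 lower, 0 endothelial higher and 1 lower, 2 neural and neural crest higher and 0 lower, and 1 lateral plate gene higher and 1 lower. The lists had 5 mural, 5 endothelial, 6 neural and neural crest and 11 lateral plate genes tested. Of all genes, 7.84% were called that day, 3.62% higher and 4.22% lower in high purity. The 4 adipose markers summed to 1.99 to 2.59 TPM and 1.46 to 2.51 TPM that day, overlapping, with ADIPOQ at 0. The part of these cells in the EBF2 result was not tested.

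MEOX1, a homeobox factor of somites, took the opposite course and marked the low-purity wells from day 4 on. It had 0 reads in all 8 wells on day 0. In the low-purity wells it was 1.96, 1.56, 1.39 and 2.15 TPM on day 4 and 22.0, 17.4, 27.2 and 35.7 TPM on day 6. The high-purity wells had at most 0.398 TPM on day 6, and no high-purity well of any day exceeded 1.01 TPM. Against a floor of 3 reads per library on day 0, the low-purity day 6 mean of MEOX1 was at least 63.8-fold higher.

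MEOX1 remained high in the low-purity wells for days after the peak. It was 15.7, 13.5, 14.8 and 15.6 TPM on day 8 and 15.6, 11.9, 13.9 and 17.6 TPM on day 10, against 0, 0 and 0.282 TPM in the high-purity wells on day 8. The level then dropped to 5.02, 6.62, 3.67 and 3.47 TPM on day 13 and to 3.25, 1.89 and 2.04 TPM on day 16. High-purity wells held 0.222 and 0.890 TPM on day 13 and 0.161, 0.655 and 0 TPM on day 16. Every low-purity well was above every high-purity well from day 4 to day 16.

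These later days were tested with limma on log2(TPM + 1) after library scaling, a scale that understates the change of low genes. A gene was called at a Benjamini-Hochberg adjusted p below 0.05 and an absolute log2 difference of at least 1. The difference of high minus low purity for MEOX1 was -3.72 ± 0.20 (SE) on day 8 (limma adjusted p = 9.30e-20), -1.78 ± 0.23 on day 13 (limma adjusted p = 1.51e-08) and -1.44 ± 0.21 on day 16 (limma adjusted p = 2.62e-07). It was the only one of the 9 genes passing the expression filter to be called on day 8, where 12.2% of all 25664 genes tested were called, 4.66% higher and 7.50% lower in high purity. MEOX1 passed that filter almost only through low-purity wells, since high-purity wells reached at most 1.01 TPM. It was also chosen with its day 6 order known, and the later days are of the same differentiations. Here and below, its p-values therefore describe the spread between wells and give no independent support. On day 0, before CHIR99021 was given, 0 of the 9 were called by limma, with 1 (TCF15) at an unadjusted p below 0.05, against 1.07% of all genes called (0.242% higher, 0.826% lower) and 25.7% below that unadjusted p.

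Within the low-purity wells MEOX1 fell by 2.06 ± 0.20 on the log2 scale from day 8 to day 16 (limma adjusted p = 1.78e-11), the only call among the 9 genes, where 6.39% of all genes were called (3.59% rose and 2.80% fell). Its day 8 to day 16 change differed between the classes by 2.28 ± 0.29 (high minus low, limma adjusted p = 4.33e-08).

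Summed mural and neural markers also differed between the classes on these days. The low-purity mural sum was highest on day 4, at 296.5 to 318 TPM, and MEOX1 on day 6. On day 6 the summed level of 5 mural cell markers (RGS5, KCNJ8, ABCC9, PDGFRB and NOTCH3) was 126 to 149 TPM in the high-purity wells and 235 to 296 TPM in the low-purity wells. On day 8 it was 83.9 to 111 TPM against 187 to 214 TPM. The 10 neural and neural crest markers summed to 39.1 to 44.9 TPM in high-purity and 147 to 227 TPM in low-purity wells on day 6, with SOX1 and STMN2 at 0 in both classes. Gene by gene, 1 of the 6 tested neural and neural crest markers was called that day, SNAI2 (-2.12), with a median of 0.07 over the 6. Of the mural markers 0 were called higher and 2 lower on day 6, with a median of -0.47, and 0 higher and 2 lower on day 8. Of all genes, 8.80% were called on day 6 (3.61% higher, 5.19% lower) and 12.2% on day 8 (4.66% higher, 7.50% lower). The 5 endothelial markers summed to 235 to 283 TPM and 257 to 337 TPM on day 6, but 3 were called higher in high purity (CDH5 2.52, TIE1 2.07, PECAM1 2.01) and 1 lower (TEK -1.55). The part of these cells in the MEOX1 result was not tested.

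**Figure D2:**
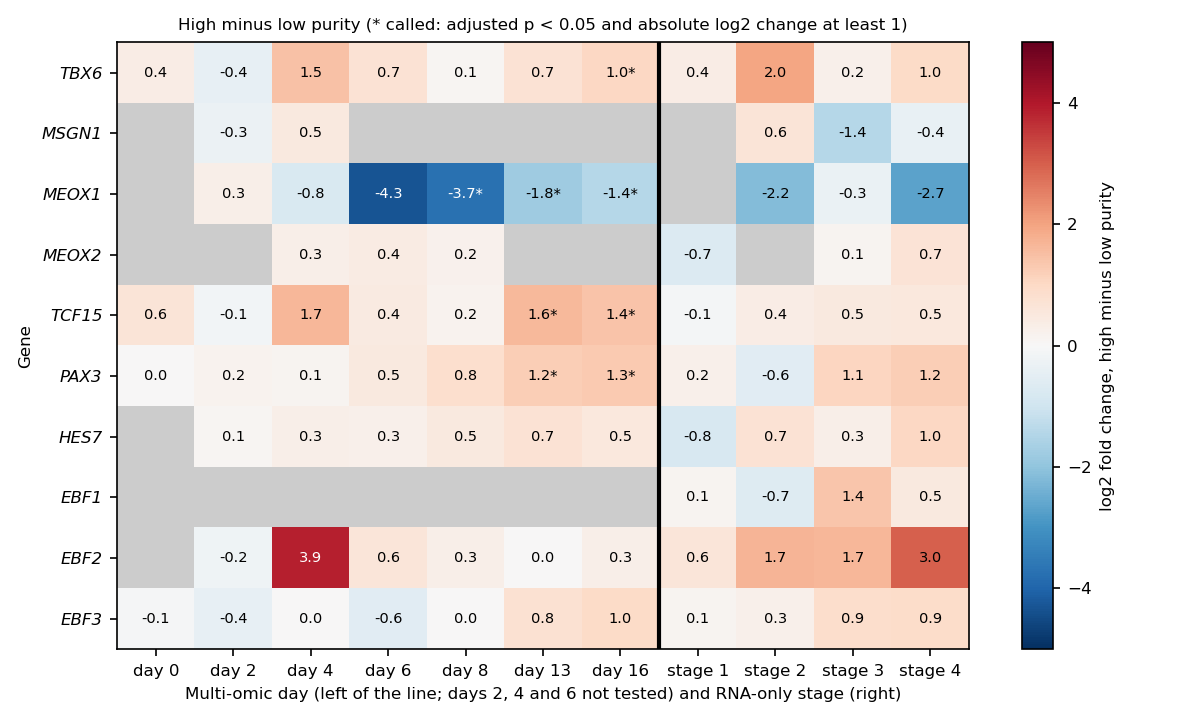
Difference of high minus low purity for each of the 10 genes (rows) in each multi-omic day and RNA-only stage (columns). Colour is the log2 difference, on the log2(TPM + 1) scale for multi-omic days and from read counts for RNA-only stages. Grey marks genes that were not fitted, had at most 3 reads in every library of both classes or, in the RNA-only stages, had 0 reads in a whole class, and an asterisk marks a call. EBF2 on day 4 (3.87) and MEOX1 on day 6 (-4.30) stand at the ends of the multi-omic scale.

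On the same scale, the untested differences of high minus low purity on day 4 were 3.87 ± 0.14 (SE) for EBF2, 1.66 ± 0.27 for TCF15, 1.47 ± 0.22 for TBX6 and -0.75 ± 0.19 for MEOX1. On day 6 MEOX1 stood at -4.30 ± 0.19 and TBX6 at 0.74 ± 0.22. Day 2 differences were small for all 9 fitted genes, between -0.41 ± 0.22 for TBX6 and 0.28 ± 0.19 for MEOX1.

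TCF15, also called paraxis, is a helix-loop-helix factor needed for the epithelial form of somites and is also known from pluripotent stem cells. It was highest before differentiation, at 10.1, 15.4, 14.5 and 14.4 TPM in the high-purity wells and 8.88, 6.00, 10.5 and 7.17 TPM in the low-purity wells on day 0. These overlapped, and the difference of 0.63 ± 0.27 did not pass the test (limma adjusted p = 0.11). On day 4 it was 2.25 to 5.29 TPM in the high-purity wells and 0 to 1.15 TPM in the low-purity wells, without overlap. On day 8 it was 0.378 to 0.622 TPM and 0 to 1.02 TPM.

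TCF15 came back late in the high-purity wells. It was 2.72 and 2.73 TPM on day 13 and 4.66, 3.56 and 2.78 TPM on day 16, against 0 to 0.665 TPM and 0.966, 0.550 and 1.52 TPM in the low-purity wells. These values rest on few reads: 11 in each high-purity well on day 13 and 17 to 26 on day 16. The low-purity wells had 0 to 3 and 3 to 6 reads on these days. The TCF15 log2 difference of high minus low purity was 1.64 ± 0.33 on day 13 (limma adjusted p = 6.41e-05) and 1.43 ± 0.31 on day 16 (limma adjusted p = 1.46e-04). Within the high-purity wells it rose by 1.83 ± 0.31 from day 8 to day 16 (limma adjusted p = 3.21e-06). Adding 0.1 TPM in place of 1 before the log gave a larger TCF15 difference on day 16, 2.05, that missed the threshold (limma adjusted p = 0.0533). TCF15 was chosen with its day 4 order known, and the later days are of the same differentiations. Its p-values therefore describe the spread between wells and give no independent support.

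PAX3, a paired-box factor of the dorsal somite, muscle precursors and the neural crest, was low in all multi-omic wells, at most 2.91 TPM. On day 13 it was 2.58 and 1.62 TPM in the high-purity wells and 0 to 1.10 TPM in the low-purity wells. On day 16 the high-purity wells had 1.81, 1.37 and 1.78 TPM of PAX3 and the low-purity wells 0.0479, 0.164 and 0.526 TPM. The classes did not overlap on either day, and PAX3 was higher in the high-purity wells by 1.24 ± 0.24 on day 13 (limma adjusted p = 3.46e-05) and 1.29 ± 0.22 on day 16 (limma adjusted p = 4.56e-06). PAX3 reached 1 TPM in 17 libraries, nearly all of high purity, so it passed the expression filter through the class in which it was higher. These p-values describe the spread between wells and give no independent support.

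The neural and neural crest markers, of which PAX3 is one, had a lower sum in the high-purity wells, but single genes were called both ways. On day 16 they totalled 16.6 to 20.1 TPM in the high-purity wells and 93.5 to 124 TPM in the low-purity wells, with SOX1 at 0 in every well of both classes. On day 13 they totalled 20.4 to 26.1 TPM and 89.2 to 130 TPM. Of the 6 tested, 1 (PAX3) was called higher and 2 (SNAI2 -2.51 and STMN2 -2.03) lower on day 16, with a median of 0.09. On day 13, 2 (PAX3 and TFAP2B) were higher and 2 (SNAI2 and STMN2) lower, with a median of -0.05. Of all genes, 13.4% were called on day 16 (5.76% higher, 7.65% lower) and 10.8% on day 13 (4.55% higher, 6.23% lower). The 5 mural markers on day 16 totalled 54.4 to 65.1 TPM and 122 to 139 TPM, and 1 of them was called, lower in high purity. The 5 endothelial markers totalled 35.6 to 41.2 TPM and 157 to 236 TPM on day 16, while 2 were called higher (CDH5 2.26 and PECAM1 1.91) and 2 lower (TEK -4.30 and KDR -2.06) in high purity. The part of cell makeup in the late TCF15, PAX3, TBX6, EBF3 and HES7 differences was not tested.

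TBX6 had a second, small rise in the high-purity wells, to 0.939, 2.89 and 1.66 TPM on day 16 from 0.494, 0.167 and 0.480 TPM on day 8. The low-purity wells had 0.461, 0.437 and 0.602 TPM on day 16. TBX6 was higher in the high-purity wells on day 16 by 1.02 ± 0.25 (limma adjusted p = 7.74e-04) and rose from day 8 to day 16 by 1.15 ± 0.25 (limma adjusted p = 2.06e-04). Both calls sat at the fold threshold: without scaling the values were 0.86 and 0.99, and without high-purity replicate 2 of day 16 they were 0.78 and 0.91. Without low-purity replicate 2 of day 16 the first was 0.99. TBX6 too was chosen with its day 4 order known in the same differentiations. Its late p-values describe the spread between wells and give no independent support.

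EBF3 showed the same late order, below the fold threshold on the log2(TPM + 1) scale. It was 0.752, 1.61 and 0.971 TPM in the high-purity wells on day 16 and 0.188, 0.171 and 0.177 TPM in the low-purity wells, a difference of 0.97 ± 0.20 (limma adjusted p = 9.00e-05). EBF3 was called on day 16 with a pseudocount of 0.1 TPM (2.28) and by edgeR on recovered reads (2.80), and also without high-purity replicate 1 (1.09) or 3 (1.00). On day 6 every low-purity well was above every high-purity well, at 1.01 to 1.54 TPM against 0.184 to 0.533 TPM of EBF3, an untested difference of -0.58 ± 0.17. Its exons share 290 bases with the antisense gene AL354950.2 on the other strand. HES7 was also higher with high purity below the fold threshold, by 0.49 ± 0.17 on day 8 (limma adjusted p = 0.0132). The HES7 difference was 0.71 ± 0.19 on day 13 (limma adjusted p = 0.00214) and 0.53 ± 0.18 on day 16 (limma adjusted p = 0.0133). Its wells overlapped on days 8 and 16 but not on day 13. The late p-values of EBF3 and HES7 too describe the spread between wells and give no independent support.

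In all, 3 of the 9 genes passing the filter (TBX6, TCF15 and PAX3) were called higher and 1 (MEOX1) lower in high-purity wells on day 16, where 13.4% of all genes were called, 5.76% higher and 7.65% lower. On day 13 there were 2 higher and 1 lower, where 10.8% of all genes were called, 4.55% higher and 6.23% lower. From day 8 to day 16, 2 rose and 0 fell in the high-purity wells, where 11.4% of all genes were called (6.14% rose and 5.23% fell). The change differed between the classes for 2, MEOX1 and TCF15 (1.27 ± 0.42, limma adjusted p = 0.02), where 9.17% of all genes were called, 4.39% with a positive and 4.78% with a negative difference. The TCF15 call was lost in 5 of 19 alternatives, with differences of 1.08 to 1.30, among them no scaling (1.12, adjusted p = 0.0583) and a pseudocount of 0.1 TPM (1.30, adjusted p = 0.482). All of these genes were chosen with earlier days of the same differentiations known, so the counts give no independent support.

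The remaining 2 genes, MEOX2 and EBF1, were low in TPM. MEOX2, the homeobox partner of MEOX1 in somites, never exceeded 1.66 TPM and had 0 reads in 33 of 56 libraries. Its highest values were on day 4, at 1.66, 0.917, 1.15 and 1.05 TPM in the high-purity wells and 0.133, 1.16, 0.876 and 1.19 TPM in the low-purity wells, which overlapped. On day 2 it had 0 reads in all 8 wells.

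EBF1, the B cell and mesenchymal member of the EBF family, reached at most 0.446 TPM and did not pass the filter. The deposited TPM values imply a transcript length of 51802 bases for it, 8.38 times the 6178 bases of its exons in GENCODE v29, so 1 TPM of EBF1 stood for about 183 reads and 1 TPM of MSGN1 for 4.83. By reads EBF1 was not absent. The low-purity wells had 35 to 45 reads on day 8 (0.220 to 0.251 TPM) and 41 to 81 on day 10. High-purity wells had 4 to 9 reads on day 8 (0.0204 to 0.0387 TPM) and 0 to 2 on days 13 and 16.

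In the RNA-only differentiations TBX6 peaked at stage 2 in all 3 lines. It was then 35.3 TPM in high-purity and 3.44 TPM in low-purity H9, 17.5 and 8.64 TPM in IMR90-4, and 29.5 and 8.65 TPM in WTC11. It was higher in the high-purity differentiation of 3 of 3 lines. This is the reverse of the order of the multi-omic day 2 wells. The log2 difference over the lines, from read counts, was 1.99 ± 0.50 (SE, the absolute difference divided by the square root of F). EBF2 and EBF3 were also higher in the high-purity differentiation of 3 of 3 lines at stage 2. EBF2 was 2.42 and 0.0966 TPM in H9 but only 2.15 and 2.01 TPM in IMR90-4 and 0.0613 and 0.0400 TPM in WTC11. EBF3 was 1.11 and 0.832, 0.899 and 0.786, and 0.205 and 0.170 TPM in the same lines. PAX3 was lower in 3 of 3, at 0.804 and 0.954, 0.1275 and 0.197, and 0.292 and 0.517 TPM. The share of all genes with 1 order in 3 of 3 lines is not given here, so nothing is read from these orders.

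Of the 10 genes, 0 passed the call rule between the purity classes at any stage (edgeR), where 0% of all 23848 genes did. At an unadjusted p below 0.05 the counts were 0, 2, 0 and 0 of the 10 at stages 1 to 4, against 1.48%, 7.95%, 7.54% and 12.1% of all genes. DESeq2 called 1, 0 and 0 of the 10 at stages 2, 3 and 4, and 76, 51 and 205 of all genes. Nothing is read from these counts, since the genes were chosen with these values known. The standard errors at stage 2 ran from 0.47 (EBF3) to 2.00 (MEOX1) on the log2 scale.

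MSGN1 and HES7 separated WTC11 from the other lines at stage 2. MSGN1 was 265 TPM in high-purity and 61.8 TPM in low-purity WTC11, at least 2072-fold and 593.5-fold higher than a floor of 3 reads at stage 1. In H9 it was 1.97 and 1.98 TPM, and in IMR90-4 0.381 and 0.596 TPM. HES7 was 13.1 and 3.81 TPM in WTC11, 0.539 and 0.628 TPM in H9, and 0.755 and 0.495 TPM in IMR90-4. Stage 2 was day 2 in WTC11 and day 3 in the others, so line and day cannot be told apart.

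TBXT, the primitive streak factor also called Brachyury, ran with MSGN1 in this respect. At stage 2 TBXT was 212 and 101 TPM in high- and low-purity WTC11, 2.92 and 0.707 TPM in H9, and 6.18 and 4.77 TPM in IMR90-4. MESP1, the early cardiac mesoderm factor, was 7.69 and 3.16 TPM in WTC11, 166 and 10.2 TPM in H9, and 99.3 and 62.3 TPM in IMR90-4. The stage 2 libraries of H9 and IMR90-4 thus held little TBXT and MSGN1. MESP1 was far above the WTC11 levels in high-purity H9 and in IMR90-4, but close to them in low-purity H9 (10.2 TPM).

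**Figure D3:**
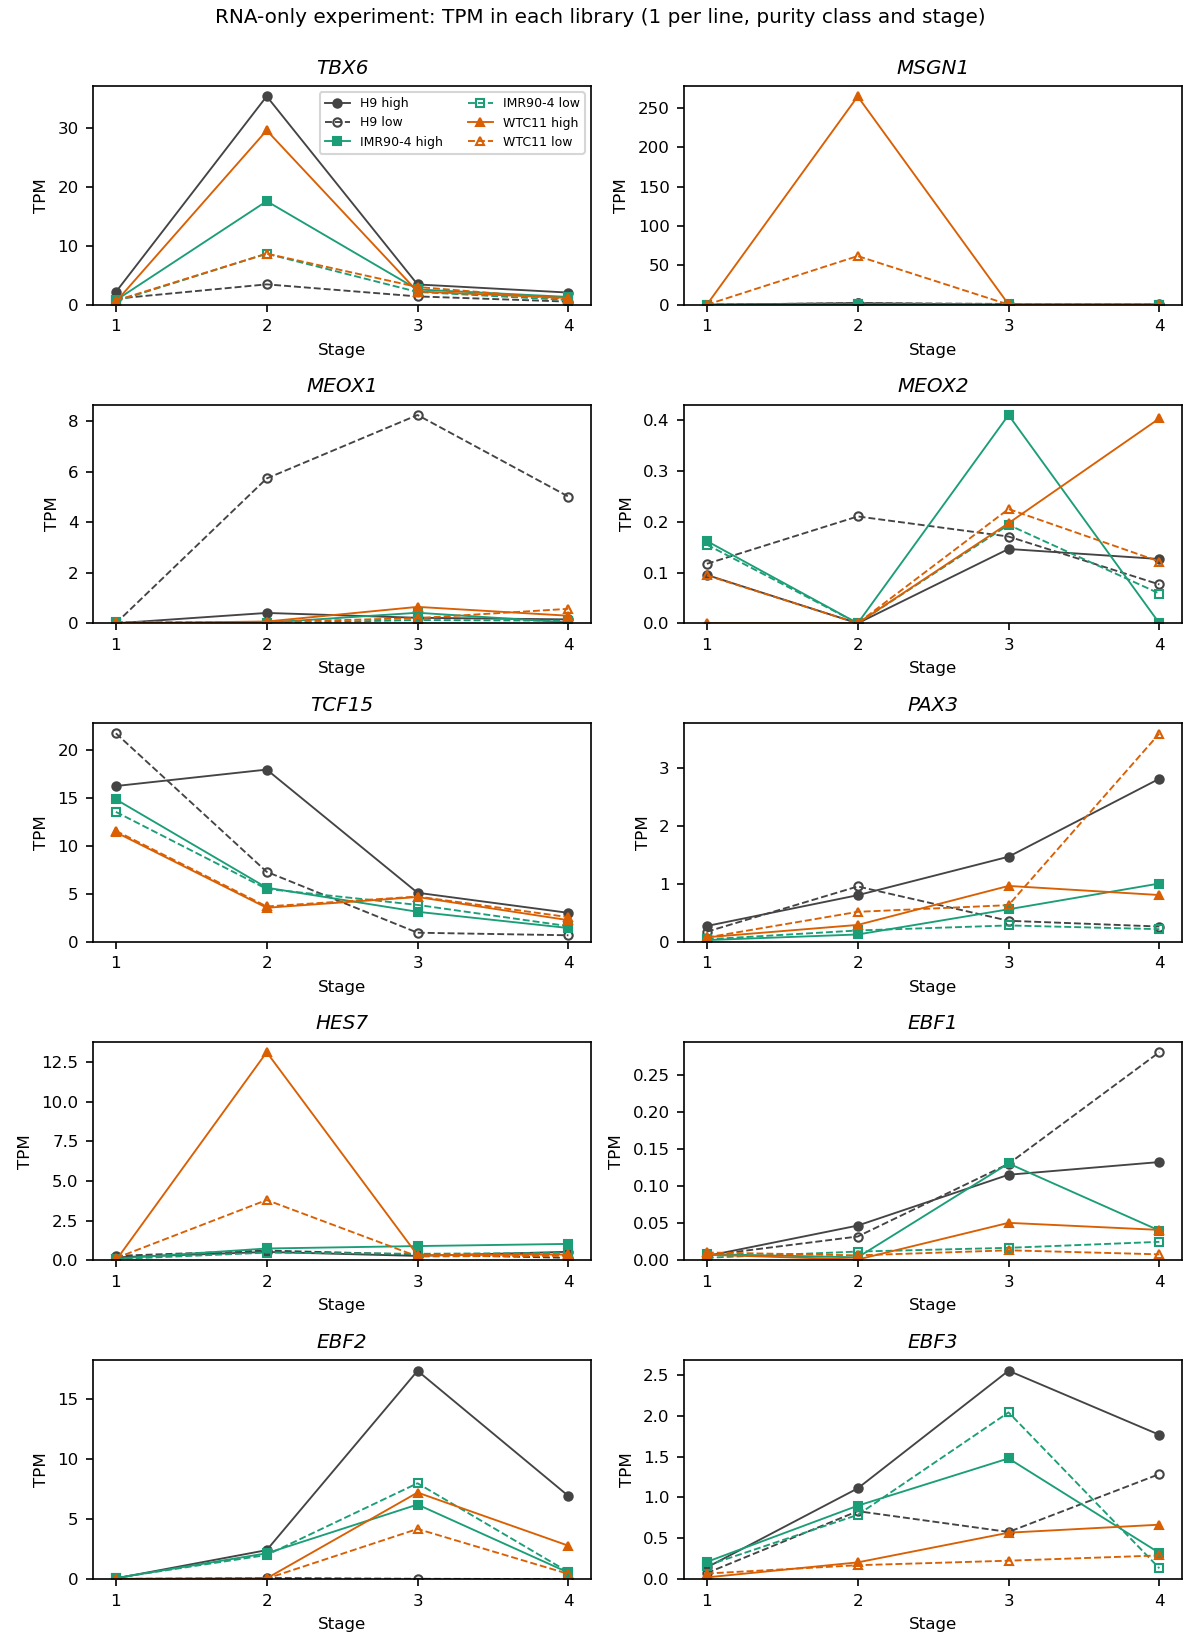
TPM of the 10 genes by stage (x axis) in the RNA-only experiment, 1 library per point, with lines for the 6 differentiations. TBX6 peaks at stage 2 in all 6 differentiations, MSGN1 and HES7 reach high levels in WTC11, and MEOX1 exceeds 0.648 TPM in low-purity H9 alone.

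EBF2 in the RNA-only series was highest at stage 3 in 5 of 6 differentiations. It was 17.4 TPM in high-purity and 0.0235 TPM (3 reads) in low-purity H9, 6.22 and 8.00 TPM in IMR90-4, and 7.22 and 4.18 TPM in WTC11. H9 and WTC11 thus had more in the high-purity differentiation and IMR90-4 did not, and the log2 difference over lines was 1.67 ± 1.80. At stage 4 it was 6.94 and 0 TPM in H9, 0.538 and 0.592 TPM in IMR90-4, and 2.79 and 0.431 TPM in WTC11.

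At RNA-only stage 4 PAX3 was higher in the high-purity differentiation of H9 and IMR90-4 and lower in that of WTC11. It was 2.81 TPM in high-purity and 0.264 TPM in low-purity H9 and 1.00 and 0.219 TPM in IMR90-4, but 0.806 and 3.59 TPM in WTC11. The last is the highest PAX3 value of either experiment.

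MEOX1 was high in 1 RNA-only differentiation. Low-purity H9 had 5.73, 8.24 and 5.01 TPM at stages 2, 3 and 4, and no other library exceeded 0.648 TPM. The low-purity H9 differentiation that held MEOX1 was also the one in which EBF2 was near 0 at stages 3 and 4. The 5 mural markers summed to 227, 69.0 and 43.3 TPM in low-purity H9 at stages 2, 3 and 4, and to at most 52.7, 58.9 and 47.9 TPM in the other libraries of those stages. The 10 neural and neural crest markers summed to 15.5, 19.3 and 10.5 TPM in low-purity H9, and to 10.4 to 204, 20.2 to 49.4 and 11.7 to 27.4 TPM in the others. The part of other cells in this MEOX1 level was not tested.

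The WTC11 libraries at passage 69 can be set beside each other across the experiments, although the tables were normalized separately and the library kits differ, so no test was made. On day 2 MSGN1 was 189 to 209 TPM in the multi-omic low-purity wells and 61.8 TPM in the RNA-only library, and TBX6 was 45.7 to 55.9 and 8.65 TPM. On day 4 EBF2 was 1.14 to 1.84 TPM in the wells and 4.18 TPM in the RNA-only library. On day 6 MEOX1 was 17.4 to 35.7 TPM in the wells and 0.572 TPM in the RNA-only library. The RNA-only low-purity library of the same line and passage number thus lacked the MEOX1 level of the multi-omic low-purity wells.

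**Figure D4:**
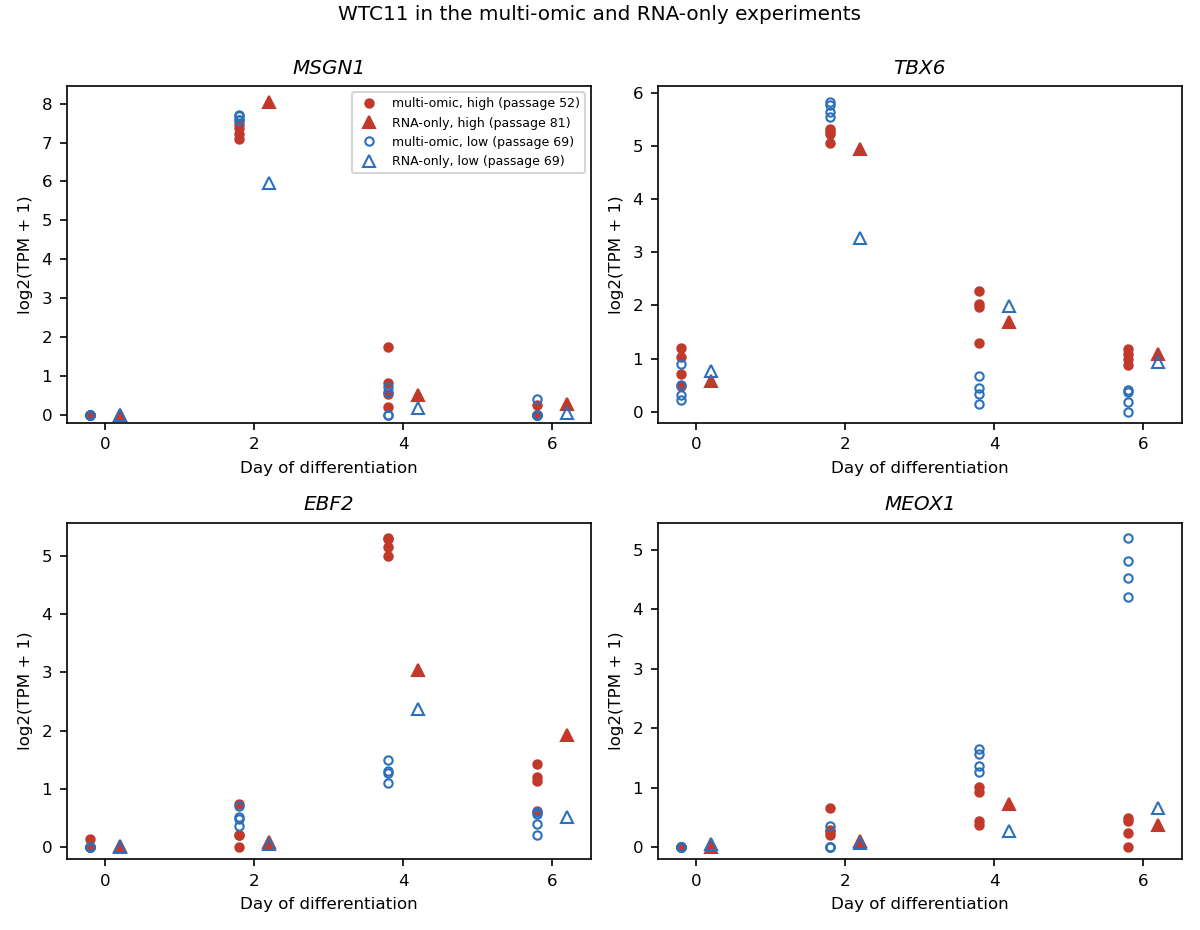
Levels of MSGN1, TBX6, EBF2 and MEOX1 (y axis, log2(TPM + 1)) in WTC11 by day of differentiation (x axis), with circles for multi-omic wells, triangles for the single RNA-only libraries, and filled or open symbols for high or low purity. On day 6 MEOX1 is 17.4 to 35.7 TPM in the low-purity multi-omic wells and 0.572 TPM in the low-purity RNA-only library.

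Changes between RNA-only stages were estimated over the 6 differentiations, each with its own mean, and are descriptions for these genes. Nothing is read from the counts of members called between stages, since the genes were chosen with these values known. From stage 1 to stage 2, 7 of the 10 passed the call rule upward and 1, TCF15, downward, where 25.6% of all genes were called (14.8% rose and 10.8% fell). TBX6 was higher by 4.15 ± 0.38 on the log2 scale, in 6 of 6 differentiations. MEOX1 was higher by 4.41 ± 1.27, but by 0.74 without H9. TCF15, at 11.5 to 21.8 TPM at stage 1, differed by -1.05 ± 0.36, with -0.87 to -1.25 over the alternatives, of which 4 of 8 took it out of the calls.

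From stage 2 to stage 3, the TBX6 difference was -2.51 ± 0.35, lower in 6 of 6 differentiations. MSGN1 differed by -5.47 ± 1.42, with -2.17 without WTC11 and -7.35 without IMR90-4. EBF2 was higher by 2.70 ± 0.84, with 3.81 without IMR90-4 and 1.58 without WTC11. EBF1 was higher by 2.19 ± 0.61 (1.95 and 2.09) and MEOX2 by 3.10 ± 1.00 (2.24 and 2.61 without the same lines). With either of these lines left out, MSGN1, EBF2, EBF1 and MEOX2 no longer passed the call rule. Over 8 alternatives the call was lost in 2 for MSGN1, 3 for EBF2, 3 for EBF1 and 4 for MEOX2. By the call rule 3 went up and 2 down, where 6.86% of all genes were called (3.57% rose and 3.29% fell). From stage 3 to stage 4, 1 of the 10, TBX6, passed the rule with -1.34 ± 0.34, where 3.72% of all genes were called (2.73% rose and 0.985% fell). The TBX6 value was -1.44 without IMR90-4 and -1.25 without WTC11, and it passed the rule in neither case. Its call was lost in 3 of 8 alternatives.

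The rest of the paraxial programme was read from a list of presomitic and clock genes and a list of somite genes, neither of which holds any of the 10. Both lists were chosen with earlier results of these data known, so the p-values of their genes are descriptions of the spread between wells. Of 18 presomitic and clock genes, 17 were tested in the multi-omic wells (DLL1 was too low). On day 2, 4 were higher and 0 lower in the high-purity wells, where 5.33% of all genes were called (2.24% higher, 3.08% lower). They were FGF8 (2.62 ± 0.26, limma adjusted p = 4.40e-11), CDX4 (1.83), HES1 (1.39) and NKX1-2 (1.39). The median log2 difference of the list was 0.26, against 0.00 over all genes tested. FGF8 is the growth factor that keeps presomitic cells immature, and CDX4 a homeobox factor of the posterior body.

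On day 4, 6 of the 17 were higher and 1 lower, where 7.84% of all genes were called (3.62% higher, 4.22% lower). RIPPLY1, which ends TBX6 activity at the segment border, had a mean of 39.9 TPM in the high-purity wells and 2.32 TPM in the low-purity wells (3.61 ± 0.23, limma adjusted p = 2.10e-17). CYP26A1, which degrades retinoic acid, had 224 and 28.9 TPM (2.91 ± 0.20, limma adjusted p = 3.54e-16). FGF17 (1.93), NRARP (1.75) and TBXT (1.19) were also higher. The gene that was lower, RSPO3, a WNT enhancer (-1.60), was singled out after its value was seen. The list median was 0.79. On day 6, 5 were higher and 1 lower, where 8.80% of all genes were called (3.61% higher, 5.19% lower), led by NRARP (2.16), FGF8 (1.72) and CYP26A1 (1.67).

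Of 15 somite genes, 10 were tested. On day 2, 0 were higher and 1, TWIST1 (-1.16), was lower in the high-purity wells, with a median of -0.33, where 5.33% of all genes were called. On day 4, 6 were higher and 1 lower, where 7.84% of all genes were called. FOXC1, a forkhead factor of paraxial mesoderm, had means of 153 and 36.6 TPM (2.04 ± 0.08, limma adjusted p = 8.34e-24), and FOXC2 (1.55) was higher too. TWIST1, a mesenchymal factor, was lower (-1.49). The median was 1.23. On day 16, 3 of the 10 were higher and 2 lower, with a median of 0.00, where 13.4% of all genes were called (5.76% higher, 7.65% lower). FOXC1 was then lower in high purity, at 6.67 TPM against 25.3 TPM in low-purity wells (-1.59), as was SIM1 (-2.50), while UNCX (3.01) was among the higher genes.

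**Figure D5:**
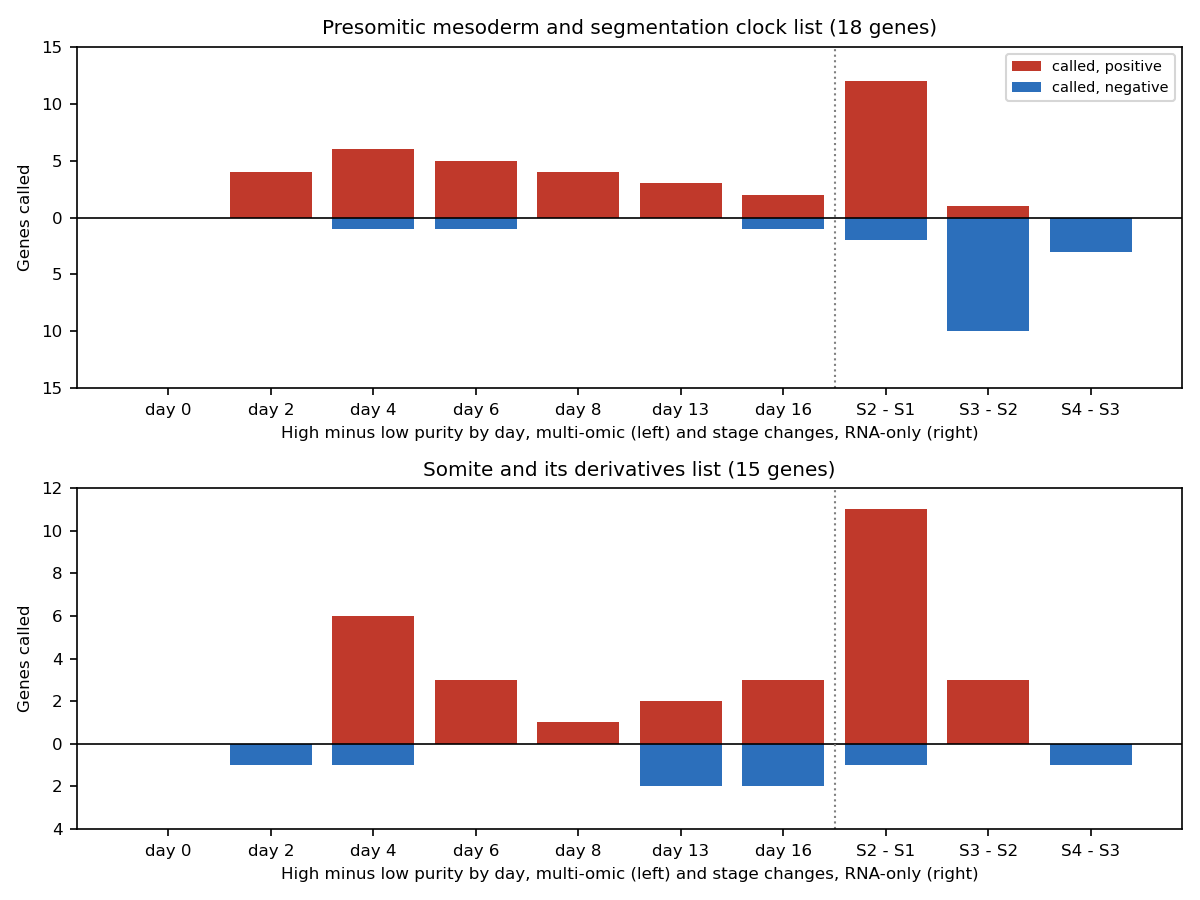
Number of presomitic and somite list genes called (y axis), with positive calls above and negative calls below the zero line, for high minus low purity by multi-omic day and for RNA-only stage changes (x axis). In the multi-omic wells of day 4, 6 of 17 presomitic and 6 of 10 somite genes are higher in high purity, and 1 of each is lower.

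Over the RNA-only stages, 12 of the 17 presomitic genes tested rose and 2 fell from stage 1 to stage 2, and 1 rose and 10 fell from stage 2 to stage 3, where 25.6% and 6.86% of all genes were called. The gene that rose in the second step was RIPPLY1 (4.05 ± 1.22), singled out after its value was seen, and those that fell included CDX1 (-4.76), FGF17 (-4.55) and TBXT (-4.08). Of 13 somite genes tested, 11 rose and 1 fell in the first step, and 3 (PAX1, UNCX and NKX3-2) rose in the second. The list medians were 4.60 and -2.98 for the presomitic genes, against 0.03 and 0.00 over all genes.

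Likeness to each gene was measured by Pearson's r over the 16 multi-omic group means, among 16958 genes. All points share the same libraries, so r is a description. MSGN1 was most like LOC105373776 (0.998), IMPA1P1 (0.997) and the WNT inhibitor DKK4 (0.996). TBX6 was most like CD1D (0.974), the streak factor MIXL1 (0.974) and IMPA1P1 (0.973), and HES7 most like MIXL1 (0.961). EBF2 was most like LINC01331 (0.963) and RIPPLY1 (0.962). MEOX1 was most like ALOX15 (0.986), TYRP1 (0.979) and GGT5 (0.974). TCF15 was less like any gene, with RASGEF1A first (0.942). Among the members themselves, r was 0.97 for MSGN1 and TBX6, 0.93 for HES7 and TBX6, and 0.91 for HES7 and MSGN1.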

How the data were processed

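The members and the gene lists were chosen with earlier results of these data known. Poly(A) RNA libraries (Illumina TruSeq Stranded mRNA) of the multi-omic experiment and total RNA libraries (Takara SMARTer Stranded Total RNA) of the RNA-only experiment were sequenced, per the labels' protocols. STAR 2.5.3a, featureCounts 2.0.3 and the hg38 build are named in the submitters' processing notes. How the TPM values were computed and which annotation was used are not given in the sources used here.

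The authors deposited TPM and raw read counts per gene for both experiments. The columns of the multi-omic count table do not hold the reads of the TPM columns of the same names: 0 of 56 matched the same name, 50 matched another and 6 none. The nearest other library by TPM was of the same group for 52 of 55 libraries, against 30 by that count table, so TPM was used there. Reads were recovered from TPM with gene lengths solved from the RNA-only tables, and 100.0% of nonzero values came out whole within 0.05 reads or 0.1%. A further 6194 genes without a solved length took at most 0.247% of TPM. From the RNA-only counts 36 broken lines were left out and 43382 genes were used.

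Multi-omic TPM was scaled (TMM), put on log2(TPM + 1), filtered to 25664 genes with at least 1 TPM in 3 libraries, and fitted with limma 3.58.1 on 16 group means (40 residual degrees of freedom), with Benjamini-Hochberg adjustment over all genes. RNA-only counts were tested with edgeR 4.0.16 (quasi-likelihood, R 4.3.3) on 23848 genes, with a mean for each line and stage (8 residual degrees of freedom) or for each of the 6 differentiations (15). The lines pair the RNA-only libraries: the deviations of the 2 libraries of a line correlated at 0.20 to 0.84. Alternatives were other scaling, pseudocount, filter, DESeq2 1.42.0, block and leaving out each well or line. The scripts were tested on simulated data. All 10 members are named. Up to 4 list genes with the largest change per list and comparison are named, with TBXT and MESP1 as reference points. The precision of each value is limited by its reads, and intervals cover the spread between libraries only. Some list genes are not reported by name here.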

Additional observations from a re-analysis of the deposited data

Results flagged for a closer look

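In 4 of the 58 groups of 4 wells examined, 1 well stood apart from the others, where chance gives about 1 in 20. In each it was the highest well of day 6. PAX3 was 2.91 TPM in high-purity well 1, with the others at 1.46 to 1.55 TPM. PAX3 was 1.62 TPM in low-purity well 2, with the others at 0.688 to 0.844 TPM. EBF1 was 0.411 TPM in low-purity well 4, with the others at 0.176 to 0.199 TPM. EBF3 was 1.54 TPM in low-purity well 1, with the others at 1.01 to 1.03 TPM.

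The change from day 8 to day 16 was compared between the classes by a test of the difference itself (limma, adjusted over all genes). For 4 of the 9 fitted genes the adjusted p was below 0.05. The share of all genes at that p alone is not given here. With the fold threshold 2 genes were called, where 9.17% of all genes were. The genes were chosen with earlier days of the same differentiations known, so these p-values describe the spread between wells and give no independent support. High minus low purity was 2.28 for MEOX1 (adjusted p = 4.33e-08), 1.27 for TCF15 (adjusted p = 0.02), 0.94 for EBF3 (adjusted p = 0.00781) and 0.92 for TBX6 (adjusted p = 0.0401), the last 2 below the fold threshold. The MEOX1 difference comes from a fall in the low-purity wells, and that of TCF15 from a rise in the high-purity wells.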

How the results depend on the processing

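Of 1469 values of the 10 genes recomputed under other settings, 1393 stayed on the same side of the threshold, 31 were no longer called, 45 became called and 0 changed sign after being called. Without the fold threshold, the list genes called on days 2, 4 and 6 numbered 28, 41 and 34 (main 9, 24 and 22), and the members called numbered 3 on day 8, 6 on day 13, 3 for the low-purity change from day 8 to 16 and 4 for the difference of changes (main 1, 3, 1 and 2). With a pseudocount of 0.1, 2 members were called on day 8 and 2 for the low-purity change. With edgeR on recovered reads, 4 were called on day 8, 7 on day 13 and 4 for the low-purity change. The shares of all genes called under these other settings are not given here. Nothing about the members is therefore read from these counts, here and below. Without scaling, 1 was called for the high-purity change (main 2) and 1 for the difference of changes, and the all-gene median difference became -0.18, -0.13 and -0.12 on days 8, 13 and 16. The share of calls that were higher in high purity then went from 38.3% to 25.3%, 42.2% to 30.6% and 43% to 28.1%, and the share that rose from day 8 to 16 from 54% to 36.1% in high-purity and 56.2% to 37.4% in low-purity wells. The alternatives for the difference of changes were chosen after seeing the data. Counts of members in the RNA-only experiment describe values that were known when the genes were chosen and support nothing. DESeq2 called 1 member between classes at RNA-only stage 2 (main 0) and 3 from stage 3 to 4 (main 1).

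Leaving out each library gave list calls of 8 to 10, 23 to 25 and 22 to 23 on days 2, 4 and 6. For members it gave 1 to 2 on day 8, where PAX3 was added without high-purity replicate 1 (1.08), 3 to 4 on day 13, where TBX6 was added without high-purity replicate 2 (1.15), and 3 to 5 on day 16 (main 4). It gave 1 to 2 for the high-purity change, 1 to 1 for the low-purity change and 1 to 3 for the difference of changes, where TCF15 was no longer called without high-purity replicate 1 (1.08) or low-purity replicate 2 (1.09) of day 16, or low-purity replicate 3 of day 8 (1.10), against 1.27. Leaving out each line gave 7 to 8 calls from stage 1 to 2 (main 8), 1 to 6 from stage 2 to 3 (main 5) and 0 to 2 from stage 3 to 4.

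The RNA-only comparisons use the line or differentiation as a replicate block. Without that block 7 members were called from stage 1 to 2, 3 from stage 2 to 3 and 0 from stage 3 to 4, and 0 between classes at every stage. Well numbers of the multi-omic experiment do not pair the wells (correlations of same-numbered wells -0.02 to 0.03), and a block on them left every count as it was: 0, 1, 3 and 4 members on days 0, 8, 13 and 16. Values below about 1 TPM rest on few reads for MEOX2 and the late TBX6, TCF15 and PAX3 values, though not for EBF1, which has many reads per TPM. At 4.51 reads per TPM, the late TCF15 values above 1 TPM rest on few reads too. The cause of each change with the settings was not tested.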
